A study of Mus musculus with 6 samples.

Results

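The genes described here encode proteins that anchor the corneal epithelium to its basement membrane or form the provisional matrix of a wound. They were picked out by gene symbol and number 9 of the 17554 genes in the expression table. *Lama3*, *Lamb3*, *Lama5* and *Lamc1* encode laminin chains, *Col17a1*, *Col7a1* and *Dst* encode anchoring proteins, and *Fn1* and *Tnc* encode glycoproteins of the wound matrix. All 9 passed the filter on low counts, *Tnc* only through its counts in the mutant samples.

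Corneal epithelium of C57BL/6 mice aged 2 months was profiled by bulk RNA-seq, with 3 control and 3 mutant samples. The labels give the genotypes as WT and Rela-/-, and the methods of the study describe the mutants as Krt14-Cre; Rela f/f. In such mice a Cre recombinase made under the keratin 14 promoter removes the floxed *Rela* alleles in epithelial cells that use this promoter, including epithelia outside the cornea, while stromal and immune cells keep *Rela*. The alleles that the control mice carried, and whether animals were pooled, are not given in the sources used here. The p-values therefore measure the spread between these samples, and in bulk RNA fewer cells of a type and less RNA per cell cannot be told apart.

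*Rela*, the targeted gene and a subunit of the transcription factor NF-κB, had 34.9 ± 1.5 FPKM (SD, n = 3) in control samples and 5.39 ± 0.41 FPKM (SD, n = 3) in mutant samples. FPKM is a read count scaled by transcript length and library total, and levels of different genes are compared here on that scale alone. The expected counts of a sample summed to between 19492942 and 19733834, of which the 9 genes held 0.488% to 0.692%. *Krt12*, the keratin of differentiated corneal epithelium, had 17005 to 21194 FPKM in the 6 samples. *Muc5ac*, the goblet cell mucin of the conjunctiva, did not exceed 0.01 FPKM. The 6 conjunctival markers, *Muc5ac* among them, summed to 1363 to 1597 FPKM in controls and 1075 to 1192 FPKM in mutants, most of it *Krt13*. *Krt14*, a basal keratin whose promoter drives the Cre, was higher in every mutant sample (log2 fold change 3.32, SE 0.18, adjusted p = 1.1e-05), while *Krt5* and *Trp63*, also basal cell genes, did not pass the test.

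Basal epithelial cells rest on a basement membrane of laminins, type IV collagen, nidogen and perlecan. Each laminin is a trimer of an alpha, a beta and a gamma chain. Laminin-332, which contains the *Lama3* and *Lamb3* chains, is the ligand of the hemidesmosome, in which integrin alpha 6 beta 4 and collagen XVII are linked to keratin filaments by plectin and the epithelial form of dystonin. Collagen VII forms the anchoring fibrils that fasten the basement membrane to the stroma. Laminin-511, which contains the *Lama5* and *Lamc1* chains, is another epithelial laminin, and fibronectin and tenascin-C are deposited beneath epithelium that migrates over a corneal wound.

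The stretches of DNA just upstream of transcription start sites are shown for 4 of these genes because NF-κB is a DNA-binding factor and *Rela* is the deleted gene. RefSeq promoter windows of GRCm38.p6 were used for 6 of the 9 genes, with 9 start sites in all. No window was used for *Lama3*, *Lamc1* and *Fn1*, so their upstream sequences were not searched. The 250 bases before the start are printed 5′ to 3′ on the strand of the gene, and capitals mark matches on either strand to a loose κB pattern, GGG and CC with any 5 bases between them. The genes are *Lamb3* (first start, chr1:193301744-193301993, plus strand), *Col7a1* (chr9:108953336-108953585, plus strand), *Lama5* (chr2:180225860-180226109, minus strand) and *Tnc* (first start, chr4:64047016-64047265, minus strand).
*Lamb3*: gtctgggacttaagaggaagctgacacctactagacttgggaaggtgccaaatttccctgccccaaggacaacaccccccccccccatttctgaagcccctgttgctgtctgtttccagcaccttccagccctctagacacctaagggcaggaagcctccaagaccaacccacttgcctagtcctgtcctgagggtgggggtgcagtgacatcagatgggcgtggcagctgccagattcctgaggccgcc
*Col7a1*: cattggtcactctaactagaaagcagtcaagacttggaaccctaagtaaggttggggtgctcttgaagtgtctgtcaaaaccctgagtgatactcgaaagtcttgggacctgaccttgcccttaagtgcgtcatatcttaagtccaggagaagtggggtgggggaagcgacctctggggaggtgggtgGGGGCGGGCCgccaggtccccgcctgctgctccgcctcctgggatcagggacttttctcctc
*Lama5*: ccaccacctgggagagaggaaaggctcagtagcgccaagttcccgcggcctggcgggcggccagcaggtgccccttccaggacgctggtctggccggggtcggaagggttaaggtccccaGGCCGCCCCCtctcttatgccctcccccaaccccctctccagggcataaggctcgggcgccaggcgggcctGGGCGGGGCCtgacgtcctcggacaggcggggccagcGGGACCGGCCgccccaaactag
*Tnc*: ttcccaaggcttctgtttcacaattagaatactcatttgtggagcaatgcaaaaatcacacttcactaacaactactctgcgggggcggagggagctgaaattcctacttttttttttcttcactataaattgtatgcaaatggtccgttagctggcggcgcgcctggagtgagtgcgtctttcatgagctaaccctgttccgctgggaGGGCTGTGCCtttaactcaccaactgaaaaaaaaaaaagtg

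No match to this loose pattern was present before the first *Lamb3* start. In the other windows shown, the match nearest to the start lay 62 bases before it in *Col7a1*, 41 bases before it in *Tnc* and 22 bases before it in *Lama5*, which held 3 matches. Of 17342 windows of this length, 57.2% held at least 1 match, so that its presence sets no window apart. The stricter κB consensus, searched on both strands, was present in 4.57% of all windows and in 1 of the 9 windows used for the 6 genes. That match, GGGAGTCTCC at chr1:193302017-193302026, lay 226 bases before a second *Lamb3* start and also meets the loose pattern. It lies downstream of the first *Lamb3* start, and 171 of the 250 bases of this second window are *Lamb3* exon. The AP-1 motif TGANTCA, searched on both strands, was in 5.48% of all windows and in 0 of these 9. A match describes the letters alone and is not evidence of a binding site.

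Both laminin-332 genes among the 9 were higher in mutant corneal epithelium, *Lamb3* at 2.35-fold and *Lama3* at 1.32-fold its control level, whereas the laminin-511 genes *Lama5* and *Lamc1* did not pass the test. Collagen VII and *Tnc* were also higher. In all, 4 of the 9 genes were higher at an adjusted p under 0.05 in the quasi-likelihood test of edgeR, with p-values adjusted by Benjamini-Hochberg across 12667 genes, against 7.82% of all genes tested. *Tnc* is 1 of these 4 and entered the test only through its mutant counts. Where at least 10 counts were required in every sample *Tnc* was not tested and 3 genes were higher, against 879 of 11968 genes tested. None of the 9 was lower, against 5.42% of all genes tested. *Lamb3* was the single gene past the study's own thresholds, an adjusted p no higher than 0.001 and at least a change of 2-fold, which 1.37% of all genes passed. Every mutant FPKM was above every control FPKM for 4 of the 9 genes, against 17.5% of all genes tested, and below for 1, against 15.2%. The median log2 fold change, mutant over control, was 0.30 for the 9 genes and -0.0028 for all genes tested.

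**Figure D1:**
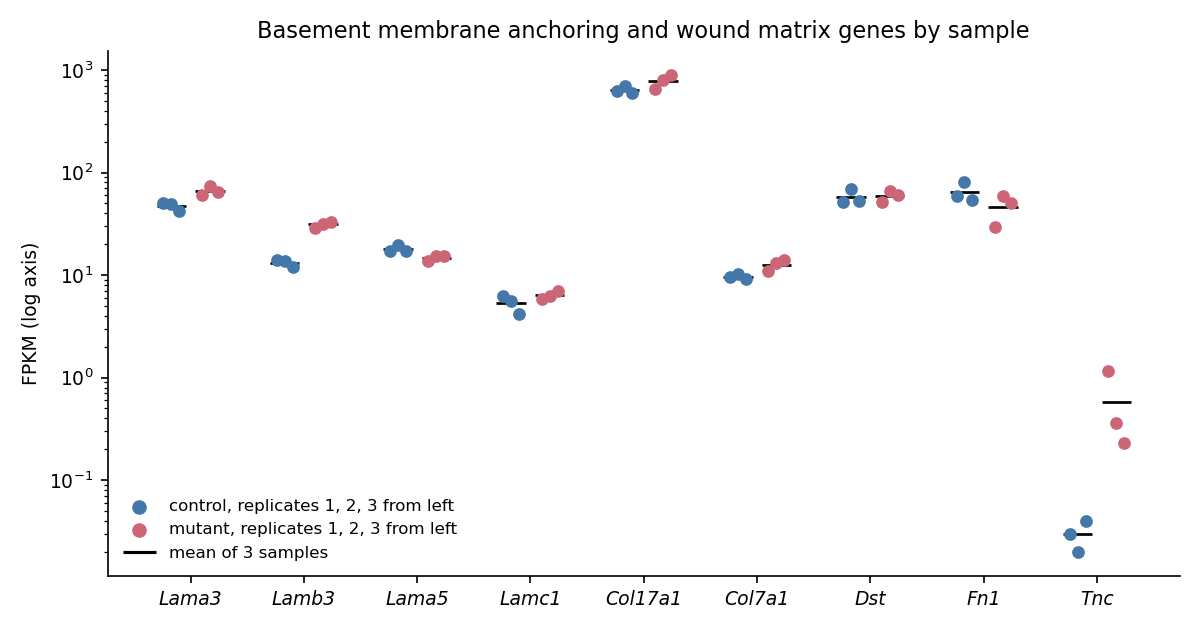
Level of each of the 9 genes in FPKM, on a logarithmic axis, with 1 point per sample (blue control, red mutant) and a line at the mean of 3 samples. The control and mutant points are apart for *Lama3*, *Lamb3*, *Lama5*, *Col7a1* and *Tnc*.

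*Lamb3* (gene 16780), the beta chain of laminin-332, lies on chromosome 1 of GRCm38 from 193207699 to 193343878 in GENCODE. Its level was 14.0, 13.7 and 11.9 FPKM in controls and 28.7, 31.6 and 33.1 FPKM in mutants. The highest control sample thus lay far below the lowest mutant sample. On the log2 scale the fold change was 1.23 (SE 0.084, 95% interval 1.05 to 1.42, adjusted p = 3.0e-05), and it was past the threshold in 14 of 14 alternative analyses, between 1.18 and 1.28.

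*Lama3* (gene 16774) encodes the alpha chain of the same trimer. Its level was 50.7, 49.1 and 42.3 FPKM in controls and 61.0, 73.6 and 64.4 FPKM in mutants, and the groups did not overlap. This difference was a log2 fold change of 0.40 (SE 0.10, 95% interval 0.17 to 0.62, adjusted p = 0.030). Its call was lost in 4 of the 6 analyses that left out 1 sample, with adjusted p values of 0.061, 0.081 and 0.12 without control 1, 2 and 3 and of 0.10 without mutant 2. *Lama3* therefore passed on a small margin, unlike *Lamb3*.

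*Lama5* (gene 16776, chromosome 2, 180176373 to 180225859) encodes the alpha chain of laminin-511. Its FPKM was 17.1, 19.5 and 17.1 in controls and 13.6, 15.3 and 15.5 in mutants. Every mutant sample lay below every control sample. A log2 fold change of -0.28 (SE 0.082, 95% interval -0.46 to -0.09) had an adjusted p of 0.054, which missed the threshold. It was past the threshold in 3 alternatives, with adjusted p values of 0.021 in DESeq2, 0.041 with upper-quartile scaling and 0.046 with an offset for transcript length.

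*Lamc1* (gene 226519, chromosome 1, 153218922 to 153332786), the gamma chain of laminin-511, had 6.22, 5.60 and 4.16 FPKM in controls and 5.86, 6.19 and 6.94 FPKM in mutants. Control 3 was the lowest of all and the other samples overlapped. Its log2 fold change was 0.25 (95% interval -0.04 to 0.54, adjusted p = 0.24), so that a rise of up to 1.45-fold is within the interval.

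The balance of chains within a sample does not depend on the scaling between samples. The ratio of *Lama3* to *Lama5* was 2.97, 2.52 and 2.48 in controls and 4.49, 4.82 and 4.17 in mutants, a difference of 0.76 on the log2 scale of FPKM ratios. *Lamb3* to *Lamc1*, a beta chain against a gamma chain, had ratios of 2.24, 2.44 and 2.87 in controls and 4.90, 5.10 and 4.78 in mutants. The difference was 0.98 on that scale. Neither pair overlapped between groups. An exact two-sided permutation test gave p = 0.1 for each, also after adjustment over 3 pairs, which is the smallest p that 3 against 3 samples allow. Both ratios largely restate the levels of these genes given above and add no separate support.

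Expressed as shares of the summed FPKM of a chain class, *Lama3* made up 71.1% to 74.7% of the alpha chains in control samples and 80.6% to 82.7% in mutant samples. *Lama5* made up 25.2% to 28.7% and 17.2% to 19.3%. The other alpha chain genes, *Lama1*, *Lama2* and *Lama4*, each held less than 0.19% in every sample.

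Among the beta chains, *Lamb3* held 26.8% to 31.0% in control samples and 53.1% to 55.8% in mutant samples, and *Lamb1* held 52.5% to 57.7% and 33.2% to 36.5%. The gene with the larger share of the beta class thus changed from *Lamb1* to *Lamb3*. The shares restate the same FPKM values and add no separate support, and RNA shares do not give the amounts of assembled trimers.

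**Figure D2:**
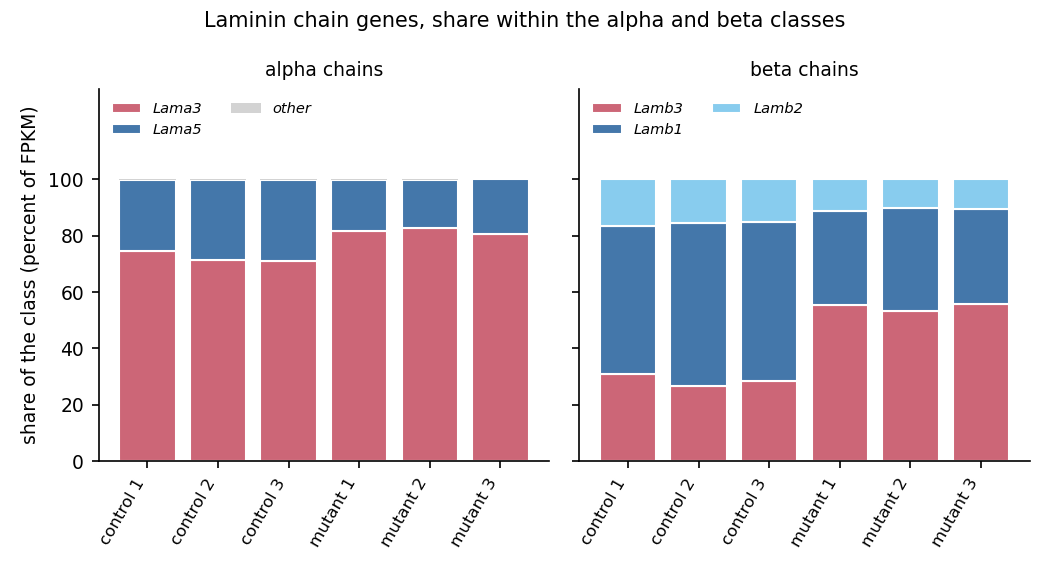
Share of each laminin gene in the summed FPKM of its chain class, in percent, for the alpha and beta chains, with 1 bar per sample. The red segments, *Lama3* and *Lamb3* of laminin-332, are taller in each mutant sample than in any control sample.

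*Lamb1*, described after its values were seen, had a log2 fold change of -0.38 and an adjusted p of 0.0503, just above the threshold.

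Of the genes that encode hemidesmosome and anchoring fibril components, *Col7a1* was higher by a small amount and *Col17a1* and *Dst* were not called. *Col17a1* (gene 12821, chromosome 19, 47646344 to 47692094), the transmembrane collagen of the hemidesmosome, had the highest level of the 9 genes in every sample. Its FPKM was 622, 698 and 591 in controls and 657, 804 and 901 in mutants. Mutant 1 lay within the control range and mutant 2 and 3 above it. Its log2 fold change was 0.30 (SE 0.11, 95% interval 0.05 to 0.55) with an adjusted p of 0.11. The adjusted p was 0.039 in DESeq2 and 0.012 without mutant 1.

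*Col7a1* (gene 12836, chromosome 9, 108953586 to 108984875), the collagen of anchoring fibrils, had 9.54, 10.3 and 9.21 FPKM in controls and 10.95, 13.1 and 14.0 FPKM in mutants. All mutant samples were above all control samples, by a narrow gap between control 2 and mutant 1. The log2 fold change was 0.38 (SE 0.094, 95% interval 0.17 to 0.59, adjusted p = 0.026). This call was lost in 7 of 14 alternatives, with adjusted p values of 0.056 and 0.051 in the 2 limma analyses of FPKM and of 0.064 to 0.10 in 5 of the 6 that left out a sample, all but the one without mutant 1.

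*Dst* (gene 13518, chromosome 1, 33908225 to 34308661) encodes dystonin, whose epithelial form ties keratin filaments to the hemidesmosome and whose other forms serve nerve and muscle. Its FPKM was 51.2, 68.3 and 52.6 in controls and 51.2, 66.7 and 60.6 in mutants. The groups overlapped throughout. A log2 fold change of 0.03 was measured (95% interval -0.25 to 0.32, adjusted p = 0.90), and the gene-level value does not separate the epithelial form from the others. It was also the only one of the 9 genes with expected counts that were not whole, which arises where reads are divided among genes.

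**Figure D3:**
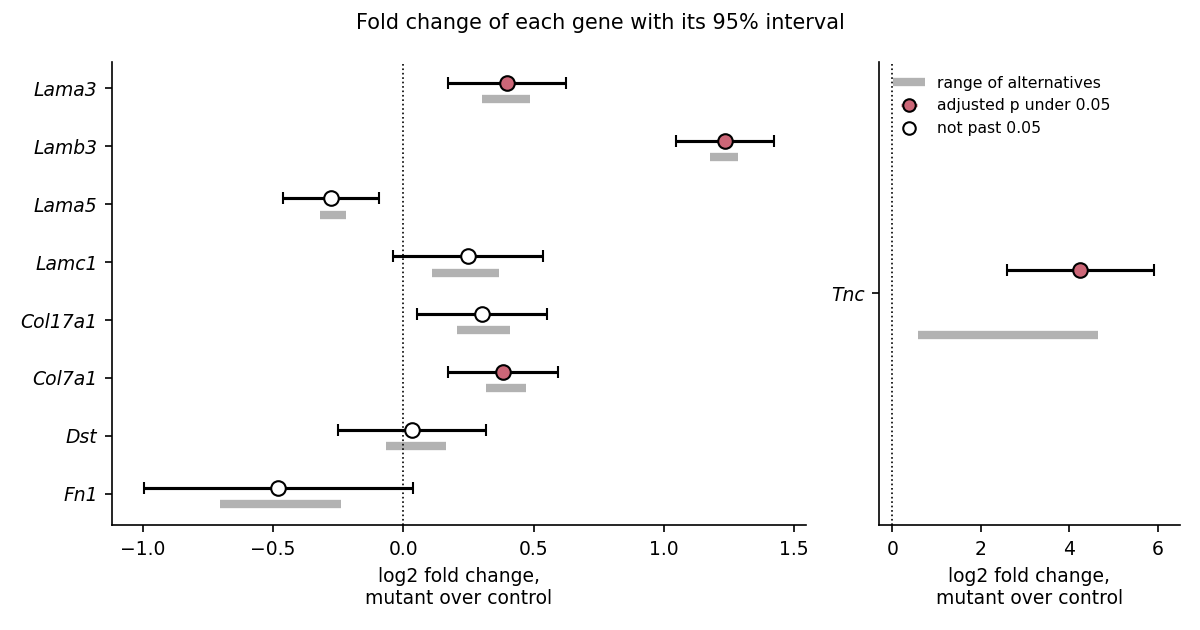
Log2 fold change of each gene, mutant over control, with its 95% interval from the quasi-likelihood fit, in red where the adjusted p was under 0.05. Grey bars span the values of the alternative analyses, and *Tnc* has its own panel and scale. The interval of *Lamb3* is the farthest from 0 among the 8 genes of the left panel, and that of *Dst* is centred near 0.

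Of 6 hemidesmosome partner genes, 3 were higher and 0 were lower, against 7.82% and 5.42% of all genes tested. Their median log2 fold change was 0.37. The higher ones were *Itga6* (0.73, SE 0.078, adjusted p = 3.9e-04) and *Itgb4* (0.53, SE 0.11, adjusted p = 0.011), the alpha 6 and beta 4 integrin chains. *Itga3* (0.49, SE 0.11, adjusted p = 0.019), a laminin-binding integrin chain that is not part of alpha 6 beta 4, was also higher. *Plec*, plectin (0.16, adjusted p = 0.18), *Cd151* (-0.02, adjusted p = 0.90) and *Fermt1* (0.24, adjusted p = 0.10), named after their values were seen, did not pass. *Itga6* had 103, 99.5 and 87.2 FPKM in controls and 160, 162 and 159 FPKM in mutants, far outside the control range. The call of *Itgb4* was lost without control 3, and that of *Itga3* without any 1 control sample or mutant 2. The count was thus 1 to 4 with a sample left out, where 574 to 1057 of all genes were higher. Among 20 other basement membrane scaffold genes, 14 were tested, 3 were higher and 2 were lower, against the same shares of all genes.

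The scaffold genes that were higher were *Sparc* (2.01, adjusted p = 1.1e-05), a matricellular collagen-binding protein, *Fbln1* (1.17, adjusted p = 7.0e-05), fibulin-1, and *Col18a1* (1.80, adjusted p = 0.0030), collagen XVIII. The level of *Col18a1* was low, with 13, 16 and 14 counts in controls and 54, 36 and 61 in mutants. The lower genes were *Col4a5* (-0.46, adjusted p = 0.019), a type IV collagen chain, and *Fras1* (-0.60, adjusted p = 0.039), a protein of the epithelial basement membrane. Both lower calls were lost in the 2 limma analyses of FPKM. *Col4a5* also lost its call without control 1 or control 2, and *Fras1* in 5 of the 6 analyses that left out a sample. The median log2 fold change of the 14 was -0.21, below that of all genes tested, whereas that of the hemidesmosome partners was above it.

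Of the wound matrix genes, *Tnc* changed from a few counts to between 28 and 144, and *Fn1* did not pass the test. *Tnc* (gene 21923, chromosome 4, 63959785 to 64047015), tenascin-C, is a glycoprotein that is scarce in resting adult tissue and made during repair. It had 4, 3 and 4 counts in controls and 144, 44 and 28 counts in mutants. Every mutant sample was above every control sample, and mutant 1 held most of the mutant counts. Mutant 1 also differed from the other mutants over tested genes with enough counts. A chi-square statistic per degree of freedom was 19.9 between mutant 1 and 2 and 27.8 between mutant 1 and 3. It was 9.95 between mutant 2 and 3 and 8.64 to 10.4 between controls. Per length, *Tnc* had 0.03, 0.02 and 0.04 FPKM in controls and 1.15, 0.36 and 0.23 FPKM in mutants, the lowest of the 9 genes in each sample.

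The share of counts that *Tnc* took was 19.6 times as high in the mutant as in controls, with a 95% interval of 10.7 to 39.9 that covers counting error only. Without mutant 1 it was 9.78 times as high, with an interval of 5.15 to 20.5. The edgeR log2 fold change was 4.25 (SE 0.74, adjusted p = 0.0052), a value that depends on how the few control counts are treated. On log2(FPKM + 1) the difference was 0.57, with an adjusted p of 0.076 in limma. It kept its call in 12 of 13 alternatives and could not be tested where at least 10 counts were required in every sample.

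*Fn1* (gene 14268, chromosome 1, 71585520 to 71653200), fibronectin, had 59.2, 81.5 and 54.0 FPKM in controls and 29.4, 59.3 and 50.7 FPKM in mutants. Mutant 1, the sample with the most *Tnc*, had the least *Fn1*, and mutant 2 lay inside the control range. The log2 fold change was -0.48 (SE 0.23, 95% interval -1.0 to 0.04, adjusted p = 0.21). No call followed from any of 14 alternatives. *Fn1* thus had the widest interval of the 8 genes other than *Tnc*.

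The log2 ratio of *Tnc* to *Fn1* in FPKM was -10.95, -11.99 and -10.40 in controls and -4.68, -7.36 and -7.79 in mutants, a difference of 4.5 between means. The groups did not overlap, and the exact two-sided permutation p was 0.1, the smallest possible. *Tnc* had 3 or 4 counts in each control sample and entered only through its mutant counts. The ratio thus largely restates the *Tnc* counts and adds no separate support. In the mutant samples *Fn1* was still the more abundant of the pair.

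**Figure D4:**
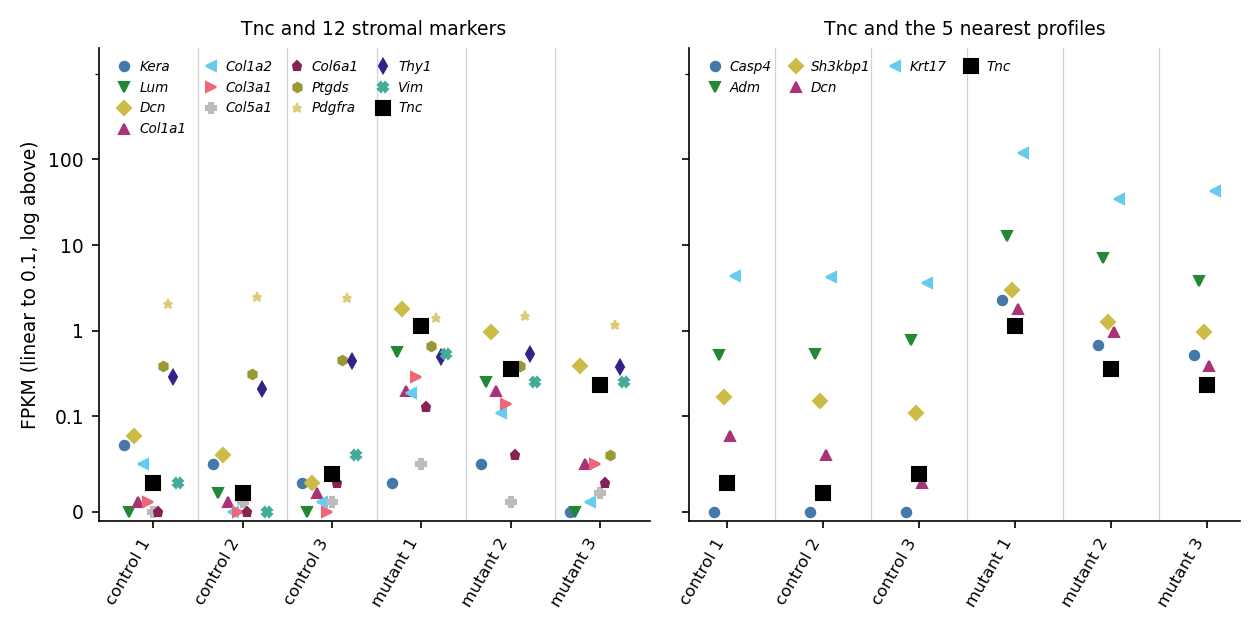
FPKM of *Tnc* (black squares) in every sample beside 12 stromal markers (left) and the 5 genes with the nearest profile (right), on an axis that is linear up to 0.1 and logarithmic above. Symbols within a sample are spread sideways for legibility. *Tnc*, *Dcn* and *Col3a1* are all highest in mutant 1 and, among the mutants, lowest in mutant 3.

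Markers of stromal cells moved in part with *Tnc*. Of 12 such markers, 3 passed the filter, 1 was higher and 1 was lower, and their summed level was 3.0 to 3.49 FPKM in controls and 2.41 to 6.37 FPKM in mutants. *Dcn*, decorin, had 3, 2 and 1 counts in controls and 66, 34 and 14 counts in mutants (log2 fold change 4.17, adjusted p = 0.0051). Like *Tnc*, it passed the filter only through its mutant counts and was not tested where at least 10 counts were required in every sample. *Pdgfra*, a receptor of fibroblasts, was lower (-0.78, adjusted p = 0.0050). It had 2.07, 2.50 and 2.40 FPKM in controls, most of the summed level there, and 1.42, 1.48 and 1.17 FPKM in mutants. *Kera*, a keratocyte gene, had 0 to 2 counts in every sample.

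Some stromal markers that did not pass the filter also had more counts in mutants, at low numbers. For 4 of the 12, *Dcn*, *Col1a1*, *Col3a1* and *Vim*, every mutant value was above every control value, against 17.5% of all genes tested. These 4 were called higher when no filter was applied, as were 1027 of all 17514 genes then tested. *Col1a1* had 1, 1 and 2 counts in controls and 23, 23 and 6 in mutants, and *Col3a1* had 1, 0 and 0 counts in controls and 32, 15 and 6 in mutants. *Vim*, vimentin, had 1, 0 and 2 counts in controls and 19, 9 and 9 in mutants, and *Lum*, lumican, had 0, 1 and 0 counts in controls and 23, 10 and 0 in mutants. *Col1a1*, *Col3a1*, *Vim* and *Lum* were chosen after their values were seen. The part of stromal cells in the *Tnc* result was not tested.

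Markers of other cell types gave few calls. Of 10 immune markers, 3 were tested and 0 were called. The 10 summed to 86.0 to 92.4 FPKM in control and 81.4 to 127 FPKM in mutant samples, most of it *Itgam*. *Ptprc*, which encodes the leukocyte marker CD45, had 6, 6 and 1 counts in controls and 14, 2 and 9 in mutants. It was named after its values were seen. The summed level is therefore not read as an amount of immune cells. Every mutant value was above every control value for 3 of the 10, against 17.5% of all genes tested. These 3, *Cd68*, *Lyz2* and *Fcer1g*, were chosen after their values were seen. *Lyz2*, a lysozyme of myeloid cells, had 0, 0 and 1 counts in controls and 24, 13 and 4 in mutants, in the same order of mutants as *Tnc*, and was the 1 immune marker called higher when no filter was applied. The part of immune cells in the *Tnc* result was not tested. None of the 5 vascular and lymphatic endothelial markers in the table passed the filter. Their sum was 0.12 to 0.25 FPKM in controls and 0.28 to 0.42 FPKM in mutants, ranges that did not overlap, at very low counts. Of the corneal endothelial and the Schwann cell and melanocyte markers, 0 of 2 and 0 of 3 tested genes were called, *Slc4a11* and *Pmel* having the highest levels. Of 5 tested conjunctival markers, *Krt13* was lower (-0.45, adjusted p = 0.015, lost without control 1 or control 3) and none was higher.

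Among corneal epithelial markers 7 were tested. *Clu*, clusterin, was higher (1.23, adjusted p = 9.1e-05) and *Aldh3a1*, a corneal crystallin, was lower (-0.25, adjusted p = 0.047, a call lost in 11 of 14 alternatives). Among 6 basal cell markers, *Krt14*, *Itga6* and *Itgb4* were higher and *Krt15*, named after its value was seen, was lower (-0.55, adjusted p = 0.039). The *Krt15* call was lost in 6 of 14 alternatives, limma on log2(FPKM + 1) and all left-out samples but mutant 1.

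The genes whose centred log2 values over the 6 samples were nearest to those of *Tnc* were *Casp4*, *Adm*, *Sh3kbp1*, *Dcn* and *Krt17*, with root mean square differences of 0.23, 0.29, 0.30, 0.35 and 0.38. *Krt17*, a keratin of activated epithelium, had 4.33, 4.18 and 3.58 FPKM in controls and 119, 34.9 and 42.2 FPKM in mutants. *Casp4*, an inflammatory caspase, had 0 counts in each control sample and 64, 19 and 13 counts in mutants. *Adm*, the precursor of adrenomedullin, had 14, 14 and 21 counts in controls and 339, 189 and 102 counts in mutants.

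The mutant 1 sample, which differed most from the other mutants over tested genes, was the highest for each of these genes. Such likeness over 6 samples describes the profiles and carries no test.

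Receptors for fibronectin and tenascin were in part higher. Of 14, 10 were tested, 4 were higher and 0 were lower, against 7.82% and 5.42% of all genes tested. *Itga5*, the alpha chain of the classical fibronectin receptor, had 7, 9 and 3 counts in controls and 70, 41 and 51 counts in mutants (log2 fold change 3.06, adjusted p = 8.7e-04), and it too passed the filter only through its mutant counts. Its partner *Itgb1* was also higher (0.63, adjusted p = 0.0024), like *Sdc4*, a heparan sulfate co-receptor (0.32, adjusted p = 0.012, lost without control 1 or control 2). The remaining higher gene, *Itgb6*, named after its value was seen, encodes an integrin chain of wounded epithelium (0.90, adjusted p = 0.014, lost without control 2 or control 3).

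Of 22 other wound matrix genes, 18 were in the table and 10 were tested. Of these 4 were higher and 1 was lower, against 7.82% and 5.42% of all genes tested. *Ltbp1*, which binds latent TGF-β in the matrix, was the most changed (3.60, SE 0.19, adjusted p = 9.7e-06), with 0.16, 0.15 and 0.16 FPKM in controls and 2.44, 2.41 and 1.80 FPKM in mutants. *Tgfbi*, an abundant corneal matrix protein, was higher (0.63, adjusted p = 8.9e-04), and so was *Ecm1* (0.60, adjusted p = 0.013, lost without control 1 or control 2). The fourth higher gene was *Cyr61*, a matricellular protein, named after its value was seen (0.64, adjusted p = 0.030, lost without any 1 control sample or mutant 2). *Efemp1*, fibulin-3, was lower (-0.32, adjusted p = 0.026, lost with the replicate block and without control 1, control 2 or mutant 2).

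Of 19 genes for matrix-processing proteases, 14 were tested, 8 were higher and 2 were lower, against 7.82% and 5.42% of all genes tested. Where at least 10 counts were required in every sample 6 were higher, and with a sample left out 6 to 9 were. Over all genes 879 and 574 to 1057 were higher in these settings, against 991 in the main analysis. *Adamts1*, 1 of the 8 and named after its values were seen, had 0, 0 and 1 counts in controls. It had 17, 11 and 17 counts in mutants and passed the filter only through these. *Mmp13*, a collagenase, had 0, 1 and 3 counts in controls and 648, 321 and 366 counts in mutants, and passed the filter only through the latter. *Mmp10*, stromelysin-2, was higher (log2 fold change 3.03, adjusted p = 2.5e-04), as was *Plau*, urokinase (1.91, adjusted p = 3.9e-04). *Mmp10* had 14, 14 and 11 counts in controls and 147, 90 and 84 in mutants. *Tll1*, a tolloid protease that can process procollagens and laminin chains, was lower (-1.03, adjusted p = 0.019), as was *Pcsk6*, a proprotein convertase (-0.64, adjusted p = 0.037). Their calls were lost in 4 and 7 of 14 alternatives. *Tll1* had only 51, 72 and 62 counts in controls and 36, 29 and 26 in mutants.

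**Figure D5:**
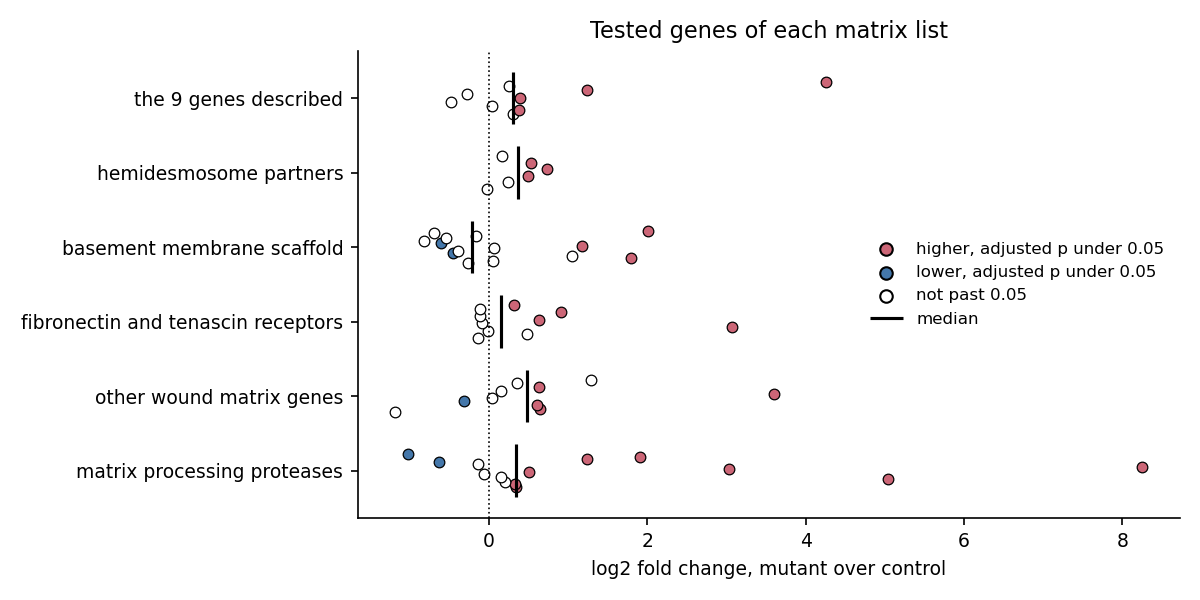
Log2 fold changes, mutant over control, of the tested genes in each matrix gene list. Each point is a gene, red where higher and blue where lower at an adjusted p under 0.05, and the line marks the median of the list. The hemidesmosome partners have a median of 0.37 and the basement membrane scaffold genes one of -0.21.

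In control samples the mean levels ran from *Col17a1* (637 FPKM) through *Fn1* (64.9), *Dst* (57.4), *Lama3* (47.4), *Lama5* (17.9), *Lamb3* (13.2), *Col7a1* (9.68) and *Lamc1* (5.33) to *Tnc* (0.03). The ranges of *Fn1* and *Dst* overlapped, and those of all other neighbours in this order did not. In mutant samples *Lama3* (66.4 FPKM) took second place ahead of *Dst* and *Fn1*, and *Lamb3* (31.1) lay above *Lama5* (14.8).

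Of the 9 genes, 7 were among the 1267 tested genes with the longest transcripts, from 6167 to 24464 bases. In that class 5.37% of genes were higher and 5.21% were lower, with a median log2 fold change of -0.025.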

How the data were processed

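Bulk RNA-seq of corneal epithelium from 3 control and 3 mutant samples was used. The study's methods describe rRNA removal and single-end 50-base BGISEQ-500 reads, while the labels name an Illumina TruSeq kit. Per the labels, the authors used Bowtie2 2.2.5 and RSEM 1.2.12 and named mm9, whereas the coordinates in the table are GRCm38. The deposited expected counts are not normalized, and the deposited FPKM values are scaled by transcript length and library total. FPKM lengths differ between samples, so FPKM ratios and count-based fold changes can differ. The authors' own fold changes, p-values and group means were not used.

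Expected counts were rounded and fitted in R 4.3.3 by edgeR 4.0.16, using TMM factors, the filterByExpr filter (minimum count 10, minimum total 15) and the quasi-likelihood test with genotype alone, in place of the study's DEGseq test, which does not model how samples of a group vary. Benjamini-Hochberg adjustment was over all genes tested. The SE is the absolute log2 fold change divided by the root of F, and 95% intervals use the test's degrees of freedom. Exact permutation tests, two-sided, were used for ratios. Alternatives tried were upper-quartile scaling, DESeq2 1.42.0, a filter of at least 10 counts in each sample or none, limma 3.58.1 on log2(FPKM + 1) and log2(FPKM + 0.1), a replicate block, a transcript length offset, each sample left out, and an adjusted p under 0.01.

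Named were all 9 genes, *Rela*, up to 3 higher and 3 lower genes of each matrix list by adjusted p, the highest marker of each list with up to 3 called ones, and the 5 nearest profiles to the most changed of the 9. The genes, lists and tests were chosen with earlier results of these data known. Gene spans are GENCODE M21, because the strand in the table differed from it for *Lama5*, *Col17a1* and *Tnc*. On simulated data with 12667 genes for this comparison, edgeR called 96% of 100 genes at log2 fold 1 and 99% of 100 at log2 fold 2, with 13 false calls. The changed genes were drawn only from those with ample counts. The simulation therefore does not cover changes below log2 fold 1 or genes with few counts, such as *Tnc*. Some results that fall under this naming rule are left out.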

Additional observations from a re-analysis of the deposited data

How the results depend on the processing

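Without mutant 1 the number of the 9 genes that were higher was 5, and over the analyses that left out 1 sample it ranged from 2 to 5. It was 2 without any one of the control samples or mutant 2, 2 with limma on log2(FPKM + 1), 3 where at least 10 counts were required in every sample and 2 at an adjusted p under 0.01. Of all genes tested, 991 were higher in the main analysis and 1057 without mutant 1. Without control 1, 2 or 3 or mutant 2, the number was 696, 574, 672 and 755. It was 931 with limma on log2(FPKM + 1) and 879 with at least 10 counts in every sample. Between 11968 and 12875 genes were tested in these analyses. The number of the 9 genes that was lower was 1 with DESeq2, with upper-quartile scaling and with the length offset, in each case *Lama5*. Over all genes 753, 748 and 754 were lower in these analyses, against 687 in the main one. The number past the study's thresholds was 2 with DESeq2 and 2 with the replicate block, and 1 to 2 with a sample left out (2 without mutant 1), *Tnc* being the added gene. *Dst* changed direction, at values from -0.066 to 0.16 with a sample left out, and was -0.042 without control 1, -0.022 without control 3 and -0.066 without mutant 2. The cause of these changes was not tested.

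The log2 ratios kept their direction in all alternatives. With a sample left out they were 0.71 to 0.85 for *Lama3* to *Lama5*, 0.90 to 1.07 for *Lamb3* to *Lamc1* and 3.54 to 5.09 for *Tnc* to *Fn1*, the last being 1.08 on log2(FPKM + 1). Replicate numbers are shared between the groups, but the deviations of same-numbered samples correlated at 0.02, 0.05 and -0.05, so the numbers were not taken to pair the samples. With the replicate block 4 of the 9 genes were higher and 0 lower, and the calls over all genes were 867 higher and 552 lower, against 991 and 687 without it. Under the block *Efemp1* and *Aldh3a1* lost their calls, and no other called gene of the lists did. Leaving out control 2 gave 574 higher and 283 lower. Depth limits *Tnc* most, with 3 or 4 counts in each control sample.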
